A study of Mus musculus with 6 samples.

Results

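The genes that act as brakes on cell division were followed across 2 mouse cell lines: the CDK inhibitor genes Cdkn1a, Cdkn1b, Cdkn2a, Cdkn2b, Cdkn2c and Cdkn2d, the pocket protein genes Rb1 and Rbl1, the p53 gene Trp53 and its antagonist Mdm2. The 10 genes were taken by symbol, and all were found among the 23284 genes of the count table. MV+ is a line derived from cultured lens epithelia of a wild-type C57BL6 mouse, and RAG is a line derived from a renal adenocarcinoma of the BALB/c strain. Each line was grown untreated, in the same serum-containing medium, in 3 separate flasks, and ribosome-depleted total RNA of each flask was sequenced. Tissue of origin, strain and transformation differ together between the 2 lines and cannot be told apart, and each line is a single line, so that p-values measure the spread between flasks. A level averages over the cells of a flask, so fewer expressing cells and less RNA per cell cannot be told apart.

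Cyclin-dependent kinases drive a cell through the division cycle, and 2 protein families restrain them. The INK4 proteins (p16Ink4a from Cdkn2a, p15Ink4b from Cdkn2b, p18Ink4c from Cdkn2c, p19Ink4d from Cdkn2d) bind CDK4 and CDK6 and keep them from pairing with D cyclins, while the CIP/KIP proteins (p21 from Cdkn1a, p27 from Cdkn1b) bind complexes of cyclins with CDK2 and other kinases. Active CDKs phosphorylate the retinoblastoma protein (Rb1) and its relative p107 (Rbl1), which otherwise hold back E2F factors and the replication genes these factors drive. The other product of Cdkn2a, p19Arf, blocks MDM2, the ubiquitin ligase that has p53 degraded, and p53 in turn activates Cdkn1a and Mdm2. Tumours and lines that grow without limit often carry lesions in these genes, and messenger RNA levels do not show whether the protein is functional.

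The members of the INK4 locus and p53 stood higher in MV+, while a CIP/KIP inhibitor, another INK4 gene and p107 stood lower. By edgeR's quasi-likelihood test with Benjamini-Hochberg adjustment over all 12965 genes tested, 3 of the 10 genes were higher in MV+ (Cdkn2b, Trp53 and Cdkn2a), 3 were lower (Rbl1, Cdkn1b and Cdkn2c) and 4 were not called (Cdkn1a, Cdkn2d, Rb1 and Mdm2). These lines differ in most of their genes: 79.3% of the genes tested were called, 40.4% as higher and 38.9% as lower in MV+. The 6 of 10 called here is therefore no excess over the background. The libraries of the lines did not overlap in CPM (the count scaled by library size) for these same 6 genes, against 80.6% of all genes tested. The median log2 fold change (MV+ over RAG) was -0.05 over the 10 genes and 0.03 over all genes tested, and the median absolute log2 fold change was 0.47 and 0.66 over these same sets.

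**Figure D1:**
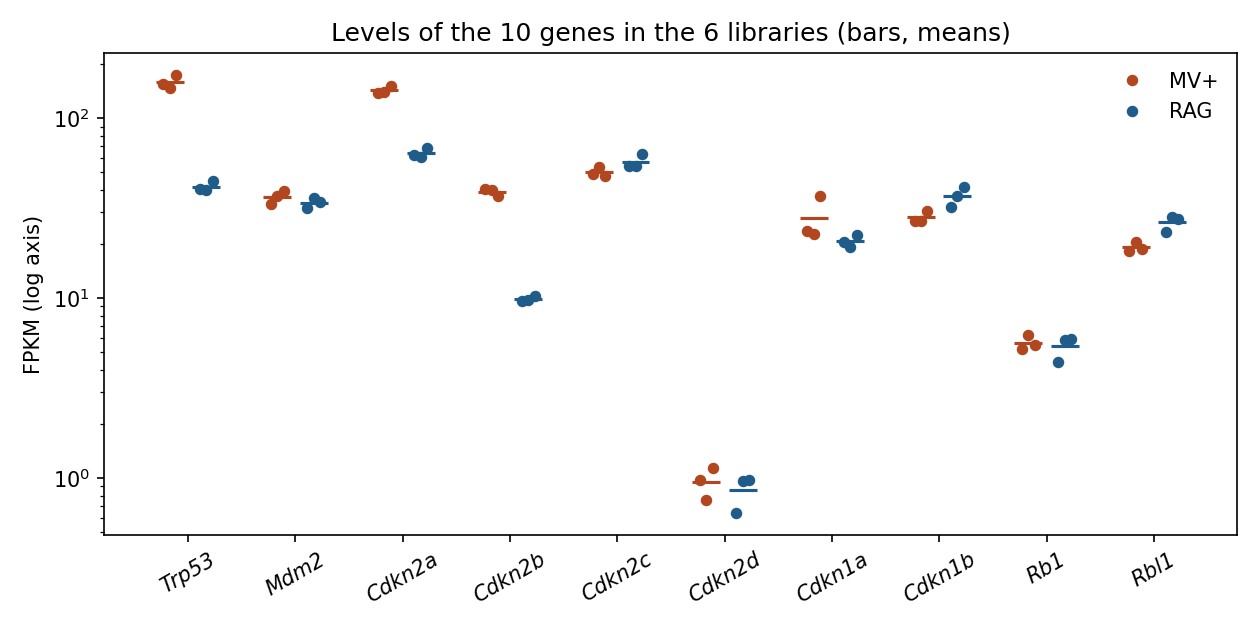
Levels of the 10 genes in FPKM (counts per exon length and library total, log axis), with 3 MV+ libraries on the left and 3 RAG libraries on the right of each gene and bars at the means. Trp53, Cdkn2a and Cdkn2b lie apart between the lines with MV+ above, from 148 to 174 FPKM in MV+ and from 39.9 to 45.0 FPKM in RAG for Trp53, while Cdkn1a has a single high MV+ library at 37.2 FPKM.

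Total counts ran between 17413045 and 22428230 in MV+ and between 28252165 and 43168532 in RAG. Pax6, the gene for which the lines were chosen, had 1136, 1159 and 1316 counts in MV+ against 0, 0 and 4 counts in RAG. Of 8 lens markers, Pax6, Six3 and Sox2 were well counted in MV+, while Foxe3 had no count and Cryaa between 3 and 10 counts in MV+. Cryab, on the same list, was lower in MV+, with between 713 and 785 counts in MV+ and between 1871 and 3009 counts in RAG (log2 fold change -1.08). Of 7 fibroblast-like markers, 5 were higher in MV+, among them Col1a1, Col3a1 and Prrx1, while Pdgfra was lower (between 19 and 31 counts in MV+ and between 148 and 193 counts in RAG) and Thy1 had at most 1 count in any library. The 7 fibroblast-like markers summed to between 1489 and 2047 CPM in MV+, against between 4.67 and 6.10 CPM in RAG. In RAG the renal markers Pax2, Pax8, Cdh16, Krt8 and Krt18 were well counted, while Cdh1 had at most 3 counts and Epcam none. Transcripts of pancreatic islet genes, which neither line should hold, appeared in MV+ alone beyond a single count: the 5 islet markers summed to between 1.38 and 9.18 CPM in MV+, lowest in replicate 3, against at most 0.0767 CPM in RAG, with Gcg at 0 in all libraries. The part of these transcripts in the values below was not tested, other than by leaving MV+ libraries out.

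Cdkn2a and its neighbour Cdkn2b lie on the same strand of chromosome 4 (mm9, chr4:88920377-88940523 and chr4:88952198-88956941), with starts 31.8 kb apart (a start is here the lowest coordinate of a gene in the deposited table). Counts per gene cannot separate the 2 products of Cdkn2a, since p16Ink4a and p19Arf have different first exons but share the exons that follow. The windows around the transcript starts are shown because the 2 genes moved together while their start regions differ in base composition. RefSeq (GRCm38.p6) gives Cdkn2a a start at the Arf exon (window 1, chr4:89294570-89294869, minus strand) and another at the Ink4a exon (window 2, chr4:89282143-89282442, minus strand), and Cdkn2b a single start (chr4:89310983-89311282, minus strand). Each window runs from 250 bases before to 50 bases after the start. Capitals mark GC boxes (GGGCGG on either strand) and, in window 1, also an E2F-type motif (TTTCCCGC).
Cdkn2a window 1: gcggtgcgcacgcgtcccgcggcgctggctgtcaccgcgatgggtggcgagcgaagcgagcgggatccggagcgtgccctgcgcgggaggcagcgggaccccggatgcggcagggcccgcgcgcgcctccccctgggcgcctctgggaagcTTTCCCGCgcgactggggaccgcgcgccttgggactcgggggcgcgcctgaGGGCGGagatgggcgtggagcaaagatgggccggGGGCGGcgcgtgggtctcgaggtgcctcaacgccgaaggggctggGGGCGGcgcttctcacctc
Cdkn2a window 2: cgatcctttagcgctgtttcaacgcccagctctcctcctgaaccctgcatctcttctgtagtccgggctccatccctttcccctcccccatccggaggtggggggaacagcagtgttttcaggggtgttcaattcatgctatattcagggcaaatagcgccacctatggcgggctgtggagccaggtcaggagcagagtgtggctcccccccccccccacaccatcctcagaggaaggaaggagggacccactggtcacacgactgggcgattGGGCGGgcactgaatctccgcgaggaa
Cdkn2b: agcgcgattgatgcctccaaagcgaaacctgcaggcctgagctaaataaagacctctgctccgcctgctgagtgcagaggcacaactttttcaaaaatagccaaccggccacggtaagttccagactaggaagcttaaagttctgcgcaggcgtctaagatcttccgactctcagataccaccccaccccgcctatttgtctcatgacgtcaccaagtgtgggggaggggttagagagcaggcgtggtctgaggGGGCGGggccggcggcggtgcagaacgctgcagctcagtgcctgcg
The Arf window held 45 CG dinucleotides, more than or as many as 98.4% of the 32851 windows of the table, whose median was 7. The Ink4a window held 12 and the Cdkn2b window 18. GC boxes stood in 35.7% of all windows and in 9 of the 12 windows found for the members, which covered 9 of the 10 genes (all but Rb1).

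Cdkn2a was among the most abundant of the 10 genes in both lines on the FPKM scale (143 FPKM in MV+ and 64.0 FPKM in RAG). It had 152, 149 and 158 CPM in MV+ against 79.1, 75.4 and 77.7 CPM in RAG, so that every MV+ library lay far above every RAG library. The mean was 153 ± 4.28 CPM in MV+ and 77.4 ± 1.85 CPM in RAG (SD, n = 3 each), a log2 fold change of 0.98 ± 0.06 (SE; adjusted p = 9.34e-10 by edgeR), or 1.98-fold. The 3 libraries of a line differed little for this gene. Its coefficient of variation was 2.80% in MV+ and 2.40% in RAG, at percentile 14.4 and 11.4 of the genes with at least 10 CPM in each line.

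Cdkn2b and Trp53 showed the largest log2 fold changes of the 10 genes, with overlapping intervals. Cdkn2b had 54.3, 52.3 and 47.2 CPM in MV+ against 15.1, 14.7 and 14.4 CPM in RAG, again with a wide gap between the lines. The mean was 51.3 ± 3.65 CPM in MV+ and 14.7 ± 0.314 CPM in RAG (SD, n = 3 each), a log2 fold change of 1.80 ± 0.08 (SE; adjusted p = 1.14e-11 by edgeR), or 3.48-fold. The 95% intervals of the 2 log2 fold changes, 1.63 to 1.97 for Cdkn2b and 0.85 to 1.12 for Cdkn2a, did not overlap. Set against Cdkn2a within each library, on the FPKM scale that allows for length, Cdkn2b stood at 0.292, 0.286 and 0.244 of the Cdkn2a level in MV+ against 0.155, 0.159 and 0.152 in RAG. Every MV+ ratio was above every RAG ratio, and the exact two-sided permutation test gave p = 0.1, which is the smallest that 3 libraries against 3 can give (adjusted p = 0.1 over 7 ratios).

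The higher level in MV+ was not shared by all genes around the locus. Of the 21 genes starting within 500 kb of Cdkn2a, 4 were tested, and the others had too few counts, among them the type I interferon genes. Mtap, which encodes the methylthioadenosine phosphorylase of the methionine salvage pathway and starts 137.1 kb away, had 256 ± 18.0 CPM in MV+ and 470 ± 6.27 CPM in RAG (SD, n = 3 each), a log2 fold change of -0.88 ± 0.07 (SE; adjusted p = 1.00e-08 by edgeR). Beyond Mtap, Gm12603 was higher in MV+ with 296, 347 and 431 counts, against 38, 17 and 40 counts in RAG (log2 fold change 4.14 ± 0.16, adjusted p = 1.60e-12 by edgeR). Mir31, the row of a microRNA that starts 363.9 kb from Cdkn2a, had 48, 37 and 59 counts in MV+ against 6, 9 and 26 counts in RAG (log2 fold change 2.46 ± 0.31, adjusted p = 2.29e-06 by edgeR). Whether these reads come from the microRNA itself or from a longer transcript was not tested. Mtap was thus the sole tested gene of this window that was lower in MV+, and it lies between genes that were higher.

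**Figure D2:**
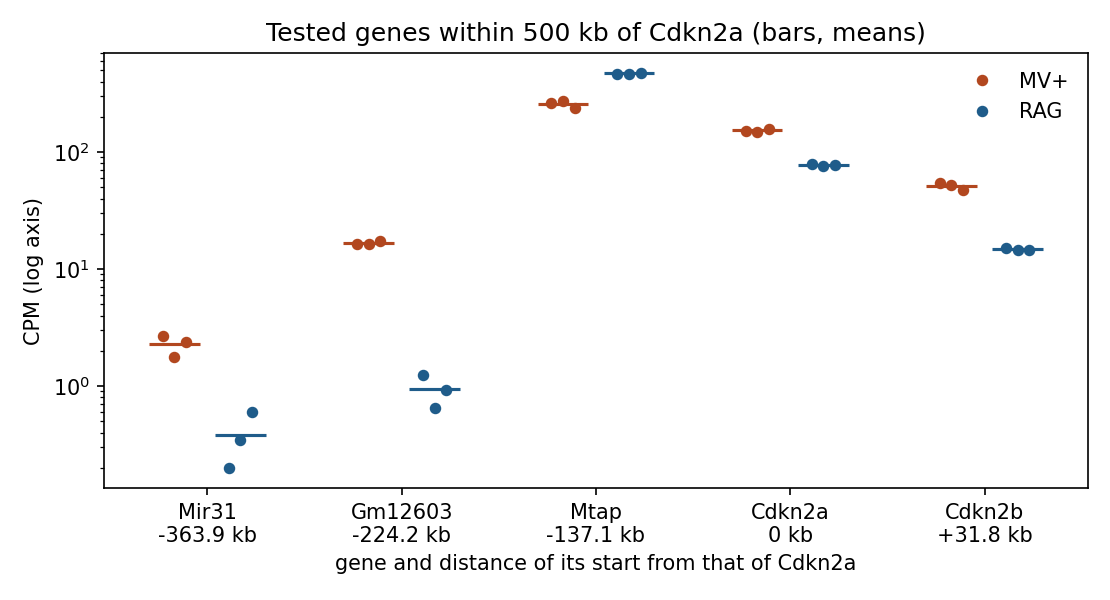
CPM (log axis) of Cdkn2a and the 4 tested genes that start within 500 kb of it, ordered by the distance of their lowest coordinates in the deposited table, with 3 MV+ libraries on the left and 3 RAG libraries on the right of each gene and bars at the means. Mtap alone is lower in MV+ (256 CPM, against 470 CPM in RAG).

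Cdkn2c (chr4:109333481-109337977, mm9), the INK4 gene on another part of chromosome 4, went the other way by a small amount. It had 52.2, 55.3 and 48.5 CPM in MV+ against 66.8, 65.4 and 69.8 CPM in RAG, so that the lines did not overlap but stood close. The means were 52.0 ± 3.39 CPM in MV+ and 67.3 ± 2.25 CPM in RAG (SD, n = 3 each), a log2 fold change of -0.37 ± 0.07 (SE; adjusted p = 2.02e-04 by edgeR). The call was lost in limma on log2(FPKM + 1), where the value was -0.19 with an adjusted p of 0.0554 on the same genes (from 0.0547 to 0.0778 over the 3 limma fits), in a scale that moves the median of all genes up by 0.17. The ratio of Cdkn2a to Cdkn2c in FPKM was 2.83, 2.63 and 3.16 in MV+ against 1.15, 1.12 and 1.08 in RAG (exact two-sided permutation p = 0.1, the smallest possible).

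Cdkn2d, the last INK4 gene, was the least counted of the 10, and its counts are a special case. The table gave it 2 places on chromosome 9 of mm9, chr9:21092908-21095653 on the minus strand and chr9:123836860-123839607 on the plus strand, and its length of 2540 bases added up both. The 401 bases of exon 1 were identical in the 2 copies, and the 869 bases of exon 2 differed at a single base, G70A (counted from 1 at the 5′ end of exon 2, first copy first). The stretch around this base is shown for both copies because reads of 50 bases that do not cover it align to either place and are left out of the counts, with the differing base in capitals (chr9:21093658-21093756, minus strand, for copy 1 and chr9:123838759-123838857, plus strand, for copy 2).
Cdkn2d copy 1: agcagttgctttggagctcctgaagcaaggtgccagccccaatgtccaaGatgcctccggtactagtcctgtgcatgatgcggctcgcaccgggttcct
Cdkn2d copy 2: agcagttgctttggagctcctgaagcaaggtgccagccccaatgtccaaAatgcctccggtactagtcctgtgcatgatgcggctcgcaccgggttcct
Of the 2344 windows of 50 bases in its exons, 100 (4.27%) occurred once in mm9. Its counts therefore rest on few positions, and its level understates that of the gene by an unknown amount. It had 43, 38 and 65 counts in MV+ against 55, 69 and 107 counts in RAG, or 2.28 ± 0.429 CPM in MV+ and 2.31 ± 0.442 CPM in RAG (SD, n = 3 each). The log2 fold change was -0.02 with a 95% interval from -0.44 to 0.41 (adjusted p = 0.944 by edgeR), so a difference of up to about that size in either direction was not detectable at this depth. Among the other members, all windows were unique for 7 genes, 98.65% for Mdm2 and 89.68% for Trp53.

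The INK4 genes other than Cdkn2d were set against their kinases. The FPKM of Cdkn2a, Cdkn2b and Cdkn2c summed to 0.660, 0.633 and 0.636 of that of Cdk4 and Cdk6 in MV+, against 0.271, 0.248 and 0.261 in RAG (exact two-sided permutation p = 0.1, the smallest possible). The ratio moved on both sides, since Cdk4 was itself lower in MV+ (431 ± 10.8 CPM in MV+ and 697 ± 21.5 CPM in RAG, SD, n = 3 each; log2 fold change -0.69 ± 0.06, adjusted p = 6.02e-08 by edgeR). Cdk6 was not called at a log2 fold change of 0.04 ± 0.10 (adjusted p = 0.699 by edgeR). Counts of Cdkn2a cannot separate p16Ink4a from p19Arf, so the ratio does not give the level of INK4 products against their kinases.

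Of the CIP/KIP genes, Cdkn1b (chr6:134870419-134875543, mm9) was lower in MV+. It had 62.9, 60.7 and 67.2 CPM in MV+ against 86.3, 96.6 and 99.5 CPM in RAG, without overlap. The means were 63.6 ± 3.34 CPM in MV+ and 94.1 ± 6.91 CPM in RAG (SD, n = 3 each), a log2 fold change of -0.57 ± 0.07 (SE; adjusted p = 3.99e-06 by edgeR). Cdkn1c, the remaining gene of the family, had 9, 6 and 8 counts in MV+ against 2, 1 and 6 counts in RAG and was left out by the filter on low counts.

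Cdkn1a (chr17:29227931-29237667, mm9) had the widest spread of the 10 genes between MV+ replicates, and that spread came from a single library. It had 46.2, 43.2 and 68.8 CPM in MV+ against 46.4, 42.0 and 45.4 CPM in RAG. MV+ replicates 1 and 2 lay within the range of RAG, and replicate 3 lay above all other libraries. The mean of 52.7 ± 14.0 CPM in MV+ against 44.6 ± 2.30 CPM in RAG (SD, n = 3 each) gave a log2 fold change of 0.24 ± 0.18 (SE; adjusted p = 0.248 by edgeR), which was not called. Its coefficient of variation in MV+, 26.6%, was above that of 99.0% of the genes with at least 10 CPM there. Without MV+ replicate 3 the log2 fold change was -0.00095 (adjusted p = 0.992 by edgeR). With MV+ replicate 3 as the sole MV+ library, whose spread is then assumed to be that of RAG, it was 0.63 and called (adjusted p = 1.26e-05 by edgeR); this alternative, which leaves out the MV+ libraries with the most islet transcripts, was chosen after seeing the data.

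Cdkn1a is the best known target of p53, and its RNA did not follow that of Trp53. A match to the p53 consensus near the upstream start of Cdkn1a is therefore shown, and whether p53 acts through it was not tested. RefSeq (GRCm38.p6) gives Cdkn1a 2 starts, and the window around the upstream one (chr17:29090729-29091028, plus strand) held a match to the p53 consensus of 2 decamers, 10 bases each, without a spacer, at most 1 mismatch allowed, on chr17:29090928-29090947. Capitals mark the match.
Cdkn1a window 1: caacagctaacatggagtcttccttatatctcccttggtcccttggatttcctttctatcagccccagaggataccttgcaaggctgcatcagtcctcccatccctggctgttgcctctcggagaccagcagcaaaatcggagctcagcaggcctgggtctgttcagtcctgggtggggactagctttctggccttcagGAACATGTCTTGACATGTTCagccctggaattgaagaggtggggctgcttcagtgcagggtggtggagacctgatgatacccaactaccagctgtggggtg
Such a match stood in 29 of the 32851 windows (0.088%) and in 1 of the 12 windows of the members. The search was made after the windows had been read. In MV+ replicate 3, Cdkn1a was higher than the mean of MV+ replicates 1 and 2 by 0.62 on the log2 scale of CPM, above 99.7% of the 8810 genes with at least 10 CPM in MV+, whose median was -0.01. Of the 14 other p53 target genes at that level, 11 were above 0 by the same measure, with a median of 0.14 and a range from -0.07 to 0.65. The highest were Trp53inp1 (0.65), an inducer of autophagy and cell death, Eda2r (0.59), a receptor of the TNF family, Ccng1 (0.42), cyclin G1, and Bax (0.37), a pore-forming killer protein. Trp53 itself stood at 0.14 and Mdm2 at 0.11. These are values of a single library, named after they were seen, with no test. MV+ replicate 3 was also the deepest MV+ library and the one with the fewest islet transcripts (6 counts of Ins1, against 41 and 23 in MV+ replicates 1 and 2), and the part of either in these values was not tested.

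**Figure D3:**
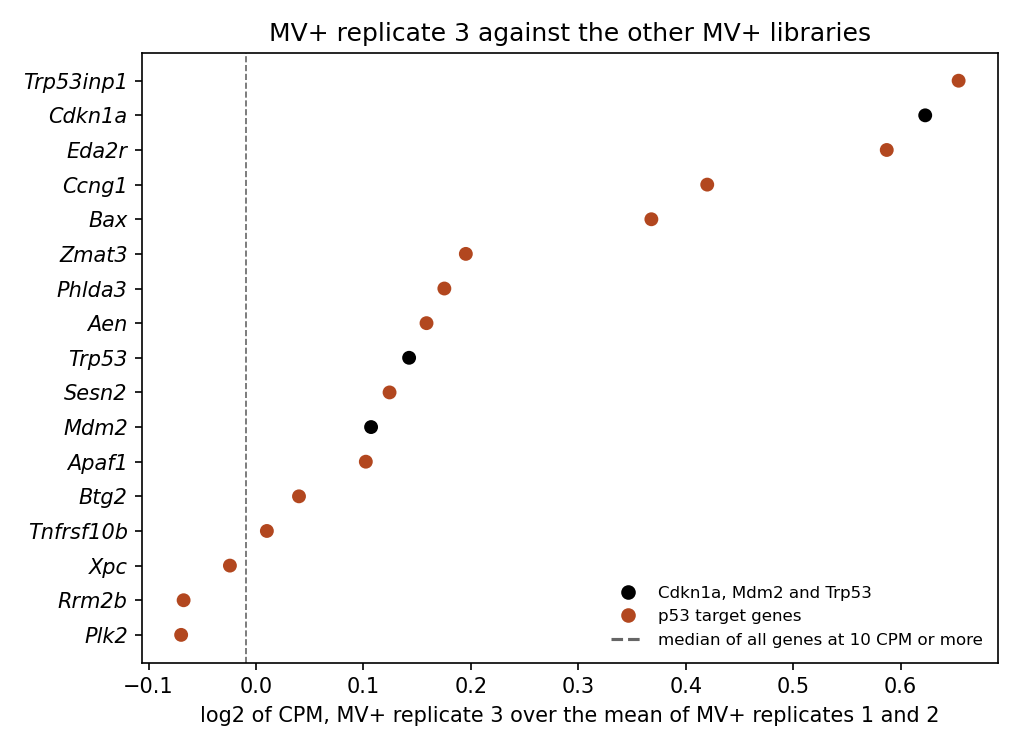
Log2 ratio of CPM in MV+ replicate 3 over the mean of MV+ replicates 1 and 2, for 3 of the 10 genes (black) and 14 other p53 target genes with at least 10 CPM in MV+ (orange), with a dashed line at the median of all such genes (-0.01). Cdkn1a (0.62) lies beside Trp53inp1 and Eda2r at the upper end, and Plk2 and Rrm2b lie lowest at -0.07.

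Trp53 (chr11:69393861-69405375, mm9) was the most abundant of the 10 genes in MV+. It had 280, 259 and 297 CPM in MV+ against 83.7, 80.8 and 84.2 CPM in RAG, with every MV+ library far above every RAG library. The means were 278 ± 19.2 CPM in MV+ and 82.9 ± 1.87 CPM in RAG (SD, n = 3 each), a log2 fold change of 1.75 ± 0.07 (SE; adjusted p = 2.54e-12 by edgeR), or 3.36-fold. In FPKM this placed Trp53 above 97.6% of the genes tested in MV+ and above 85.5% in RAG. A processed pseudogene of Trp53 is listed in mouse, and the 89.68% of windows that were unique carry its count.

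Mdm2 (chr10:117125961-117147772, mm9), a target as well as the antagonist of p53, did not move with it. It had 98.0, 105 and 109 CPM in MV+ against 106, 119 and 104 CPM in RAG, with the ranges overlapping. The log2 fold change was -0.08 ± 0.07 (SE; adjusted p = 0.335 by edgeR), with a 95% interval from -0.23 to 0.08 and a sign that turned with upper quartile scaling and in limma on FPKM. The ratio of Trp53 to Mdm2 in FPKM was 4.34 ± 0.316 in MV+ and 1.23 ± 0.109 in RAG (SD, n = 3 each), and that of Trp53 to Cdkn1a was 5.92 ± 1.07 in MV+ and 2.02 ± 0.0640 in RAG (SD, n = 3 each; exact two-sided permutation p = 0.1 for each, the smallest possible).

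The 2 pocket protein genes differed from each other. Rb1 (chr14:73595309-73725598, mm9) had 23.5, 27.1 and 23.2 CPM in MV+ against 22.6, 29.4 and 27.7 CPM in RAG, with ranges that overlapped almost fully. Its log2 fold change was -0.11 ± 0.10 (SE; adjusted p = 0.329 by edgeR), with a 95% interval from -0.33 to 0.11 and a sign that turned in limma on FPKM. Rbl1 (chr2:156971630-157030270, mm9) had 95.9, 104 and 92.5 CPM in MV+ against 140, 165 and 150 CPM in RAG, without overlap. Its means were 97.4 ± 5.76 CPM in MV+ and 152 ± 12.5 CPM in RAG (SD, n = 3 each), a log2 fold change of -0.64 ± 0.08 (SE; adjusted p = 1.16e-06 by edgeR). The ratio of Rbl1 to Rb1 in FPKM was 3.48, 3.27 and 3.41 in MV+ against 5.29, 4.80 and 4.64 in RAG (exact two-sided permutation p = 0.1, the smallest possible).

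Rbl1 is itself a gene that E2F factors drive, and its start window (GRCm38.p6, chr2:157204485-157204784, minus strand) is shown for that reason. Capitals mark an E2F-type motif (TTTCGCGC) and a GC box on the other strand (CCGCCC). The motifs searched, on both strands, were TTTCGCGC, TTTGGCGC, TTTCCCGC and TTTGCCGC.
Rbl1: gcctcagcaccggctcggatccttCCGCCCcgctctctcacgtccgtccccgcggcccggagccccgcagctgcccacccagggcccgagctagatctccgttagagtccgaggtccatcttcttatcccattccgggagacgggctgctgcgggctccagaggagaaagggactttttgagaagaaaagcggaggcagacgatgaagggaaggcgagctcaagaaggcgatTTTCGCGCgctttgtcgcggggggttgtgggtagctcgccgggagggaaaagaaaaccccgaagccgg
These motifs stood in 2.27% of all windows and in 2 of the 12 windows of the members, that of Rbl1 and the Arf window of Cdkn2a.

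The order of the levels, on the FPKM scale, changed between the lines. In MV+ it ran from Trp53 (159 FPKM) and Cdkn2a (143 FPKM), whose libraries overlapped, through Cdkn2c (50.1 FPKM), Cdkn2b (39.2 FPKM), Mdm2 (36.6 FPKM), Cdkn1b (28.2 FPKM), Cdkn1a (27.8 FPKM) and Rbl1 (19.2 FPKM) down to Rb1 (5.67 FPKM) and Cdkn2d (0.958 FPKM). Cdkn2b and Mdm2, and Cdkn1b and Cdkn1a, also overlapped with each other in MV+. In RAG it ran from Cdkn2a (64.0 FPKM) and Cdkn2c (57.3 FPKM), which overlapped, through Trp53 (41.7 FPKM), Cdkn1b (36.9 FPKM) and Mdm2 (34.0 FPKM), which overlapped in turn, to Rbl1 (26.4 FPKM), Cdkn1a (20.7 FPKM), Cdkn2b (9.93 FPKM), Rb1 (5.41 FPKM) and Cdkn2d (0.859 FPKM). Cdkn2b was thus at rank 4 in MV+ and at rank 8 in RAG, and Rb1 and Cdkn2d were the lowest in both lines. The place of Cdkn2d cannot be read as its rank, since its level understates that of the gene by an unknown amount.

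**Figure D4:**
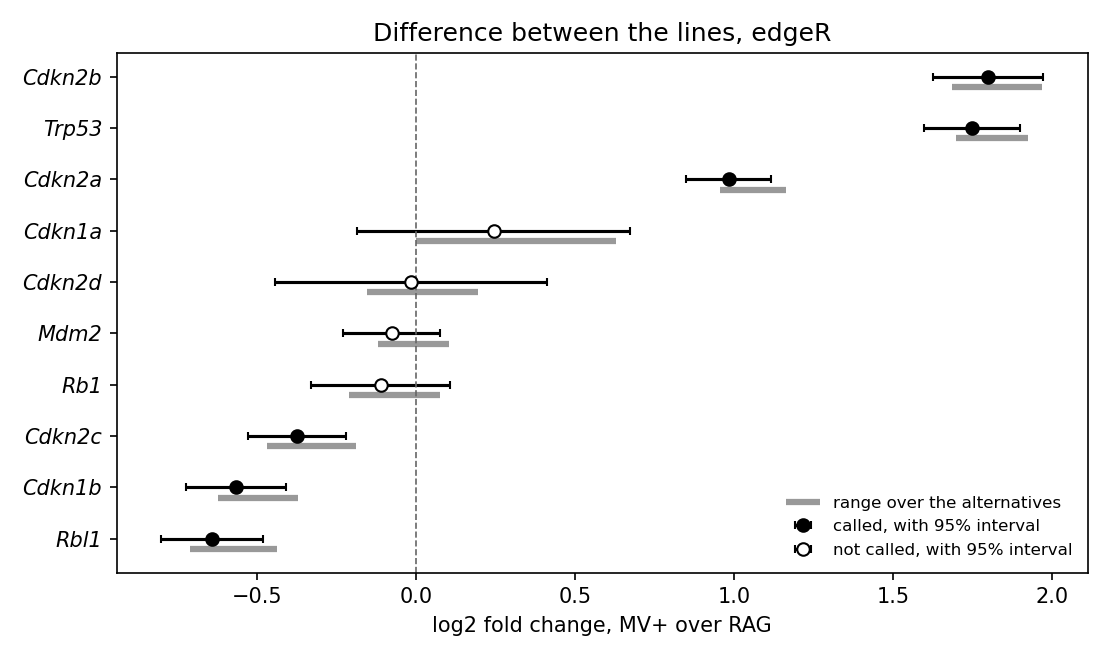
Log2 fold change, MV+ over RAG, of the 10 genes by edgeR, with 95% intervals (black bars), filled circles for called genes and open circles for genes not called, and the range over the alternative settings below each (grey bars). Cdkn2b (1.80), Trp53 (1.75) and Cdkn2a (0.98) lie to the right, and Rbl1 (-0.64), Cdkn1b (-0.57) and Cdkn2c (-0.37) to the left of 0 under all settings.

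Genes that act next to these were followed in lists, to be read beside the 40.4% of all genes tested called higher and the 38.9% called lower in MV+. Of 12 cyclins, kinases of the G1 phase and their activators, 3 were higher and 5 lower in MV+, and their median log2 fold change was 0.03. The share called on this list was 66.7%, against 79.3% over all genes tested. The D cyclins, which the INK4 proteins keep from CDK4 and CDK6, differed in level. Ccnd2 had 183, 172 and 161 CPM in MV+ against 0.462, 0.192 and 0.232 CPM in RAG (log2 fold change 9.18 ± 0.15, adjusted p = 7.42e-17 by edgeR), while Ccnd1 had 184, 161 and 176 CPM in MV+ against 1230, 1099 and 1204 CPM in RAG (log2 fold change -2.76 ± 0.08, adjusted p = 2.86e-14 by edgeR). Ccnd3, the remaining D cyclin, was also lower in MV+ (log2 fold change -0.44 ± 0.08, adjusted p = 9.86e-05 by edgeR), a call lost in limma on log2(FPKM + 1) without a filter (adjusted p = 0.0570). Ccne2, a cyclin of CDK2, was higher in MV+ at 1.13 ± 0.11 (adjusted p = 1.66e-07 by edgeR).

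Of 11 E2F and DP factors and the other pocket protein gene, Rbl2, 4 were higher and 6 lower in MV+ (median log2 fold change -0.29). The share called was 90.9%, against 79.3% over all genes tested. E2f2 (log2 fold change -1.23), an activator, and E2f8 (-1.12), a repressor, fell furthest, and E2f5 (1.41) and E2f7 (0.74), repressors, rose most. Rbl2 was lower at -0.38 ± 0.08 (adjusted p = 6.46e-04 by edgeR), but not called in the 3 limma fits (adjusted p from 0.0849 to 0.112) or without MV+ replicates 1 and 2 (adjusted p = 0.0607 by edgeR). Of 18 replication genes that E2F drives, 3 were higher and 9 lower in MV+ (median log2 fold change -0.13). Here 66.7% were called, below the 79.3% over all genes tested. Under the alternatives between 2 and 7 were higher and between 7 and 9 lower. Rrm2, the small subunit of ribonucleotide reductase, fell furthest (log2 fold change -3.15), followed by Mki67 (-0.83), the proliferation marker, while Rrm1 (0.40), the large subunit, and Mcm5 (0.32), of the replicative helicase, were the highest.

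Around p53, 7 of the 14 tested kinases, regulators and relatives were higher and 5 lower in MV+ (median log2 fold change 0.06). The relatives Trp63 and Trp73 had too few counts to test. Rfwd2 (log2 fold change 1.52), a ubiquitin ligase for p53, and Hipk2 (0.97), a kinase that phosphorylates it, rose most, while Trim24 (-0.96), another ligase, and Chek2 (-0.96), a kinase of the damage response, fell furthest. Of 22 p53 target genes other than Cdkn1a and Mdm2, 10 were higher in MV+, 10 lower and 2 not called (median log2 fold change -0.02). Their median absolute log2 fold change was 1.18, against 0.66 over all genes tested. The list was chosen with earlier results of these data known, so these values are description and no conclusion is drawn. Perp (-10.62), a desmosome protein, with 7 counts over the MV+ libraries, and Gdf15 (-6.35), a stress cytokine, were lowest, and Eda2r (8.01), with 8 counts over the RAG libraries, and Fas (3.06), a death receptor, were highest. Equal numbers of these targets were higher and lower in MV+. Over all genes tested the split was also nearly even, with 40.4% higher and 38.9% lower. Whether the targets answered to the level of Trp53 was not tested.

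Among 15 regulators of the Cdkn2a and Cdkn2b locus, 6 were higher and 5 lower in MV+ (median log2 fold change -0.03). Ets1, an activator of p16Ink4a, was higher (log2 fold change 2.79 ± 0.07) and Id1, which opposes it, was lower (-1.48 ± 0.07; adjusted p = 1.46e-14 and 1.99e-11 by edgeR). Tbx2, a repressor of the locus, was lower (-2.62 ± 0.26, adjusted p = 2.11e-07 by edgeR), at low counts. It had 5, 7 and 13 counts in MV+ against 76, 54 and 115 counts in RAG. Its relative Tbx3, also a repressor, had 38, 22 and 38 counts in MV+ and none in RAG, at least 52.0-fold higher in MV+ against a floor of 3 counts summed over the RAG libraries. Of all 92 tested genes on these lists, 79.3% were called, the same share as over all genes tested.

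**Figure D5:**
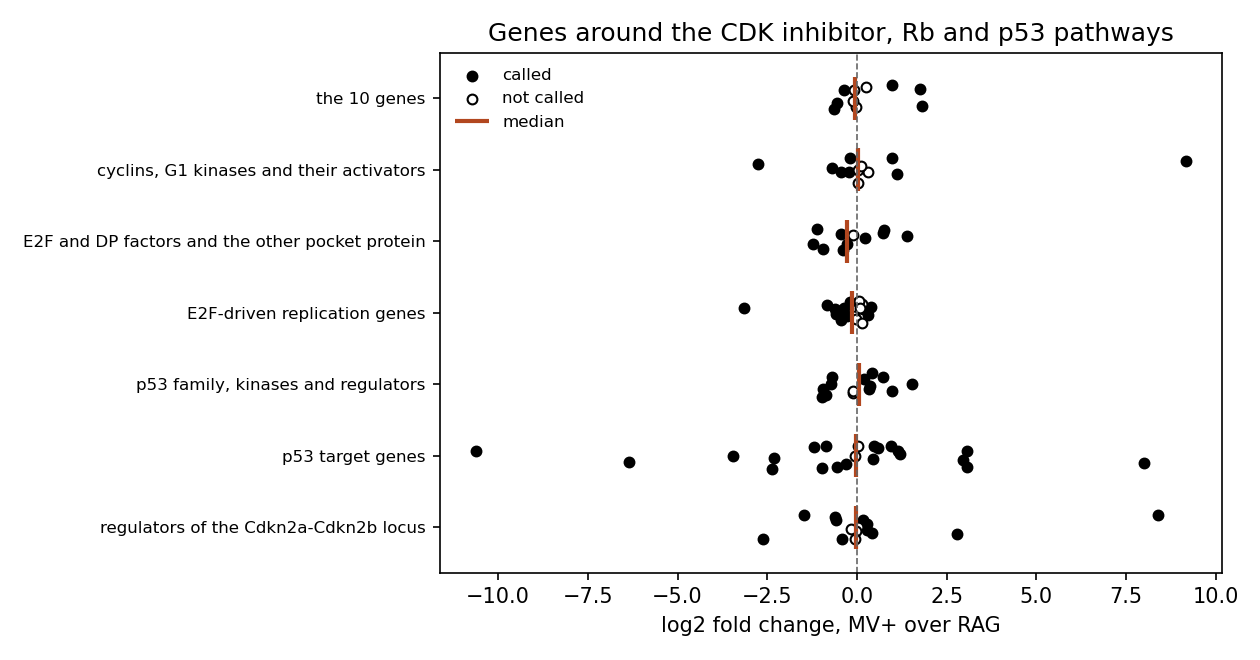
Log2 fold change, MV+ over RAG, by edgeR for the 10 genes and for the tested genes of each list, with filled circles for called genes, open circles for genes not called and orange bars at the medians. The medians lie between -0.29 and 0.06, while single genes reach -10.62 (Perp) and 9.18 (Ccnd2); the point of Tbx3 near 8.4 has no count in RAG and depends on the small count that the fit adds.

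The nearest tested genes on either side of the members were also read from the fit. Around Trp53, Wrap53, whose lowest coordinate lies 18.6 kb from that of Trp53, was higher in MV+ at a log2 fold change of 0.87. Sat2 was higher at 0.60, against 1.75 for Trp53. The call of Sat2 was lost without MV+ replicates 1 and 2 (adjusted p = 0.0806 by edgeR). Within 500 kb of Trp53, 32 of the 46 tested genes were higher and 7 lower in MV+. Within 500 kb of copy 1 of Cdkn2d, a gene not called, 21 of 32 were higher and 5 lower. Genes around copy 2 were not read. Over all genes tested, 40.4% were higher and 38.9% lower. Around the other members outside the Cdkn2a and Cdkn2b locus, between 0 and 5 neighbours were higher and between 2 and 7 lower.

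Around Rbl1, Samhd1 was lower at -0.66, close to the -0.64 of Rbl1. 4922505G16Rik was not called (-0.55, adjusted p = 0.0814 by edgeR), but was called without MV+ replicate 2 (-0.75) or RAG replicate 2 (-0.72). Around Cdkn1b, 1190002F15Rik was lower (-1.51), as Cdkn1b was, and 2810454H06Rik higher (0.89). Around Cdkn2c, Rnf11 was lower (-0.38), but not called in the 3 limma fits (adjusted p from 0.173 to 0.249). Faf1 was not called beside Cdkn2c (-0.12), but was called with the replicate block (-0.12, adjusted p = 0.0270 by edgeR). Of the nearest genes beside members that were called, 2810454H06Rik and Mtap alone were called in the direction opposite to the member.

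Beside the members that were not called, Kri1 (0.59) and Slc44a2 (-1.73) by copy 1 of Cdkn2d were called. So were Ppil1 (-0.62) by Cdkn1a, Rcbtb2 (0.47) by Rb1 and Slc35e3 (-1.03) by Mdm2. Srsf3 by Cdkn1a was higher (0.27), and its call was lost without MV+ replicate 2 (adjusted p = 0.0635 by edgeR). Lpar6, which lies within Rb1 (0.04), was not called. Cpm beside Mdm2 was not called either (0.68, adjusted p = 0.0849 by edgeR), but was called in 2 of the 3 limma fits (adjusted p = 0.0231 and 0.0267).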

How the data were processed

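RNA-seq of 3 MV+ and 3 RAG libraries was used. Ribosome-depleted total RNA was read as single ends of 50 nt with a kit not described as marking strand. The authors, per the file headers and their methods, aligned reads to mm9 with TopHat2 version 2, handled them with SAMtools 1.6 and counted them per RefSeq gene with featureCounts 1.5.0-p3 at default settings, which leave out reads that align to several places or overlap several genes and ignore strand. The deposited counts were raw. The deposited FPKM values were the counts divided by summed exon length and library total, and recomputing them from the counts gave a largest relative difference of 2.7e-15. FPKM served to compare levels between genes, and counts served for all tests between lines. The table held 0 rows without a gene name and 0 columns of other samples.

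Counts were tested with edgeR 4.0.16 (R 4.3.3; quasi-likelihood, robust, filterByExpr, TMM), with two-sided p-values adjusted by Benjamini-Hochberg over the 12965 genes tested. A gene was called when its adjusted p was under 0.05. CPM uses TMM-scaled library sizes, and 3 counts amounted to between 0.0697 and 0.167 CPM in a single library. Standard errors are the log2 fold change over the square root of F. The steps were tested on simulated data in which few genes changed, so that test does not cover lines that differ in most of their genes. Libraries of a line differed by more than sampling noise (chi-square per degree of freedom from 9.33 to 98.4). Same-numbered libraries of the 2 lines deviated together (r = 0.37, 0.27 and 0.22 across genes, against values from -0.22 to -0.04 for the others). Deviations from a line's mean cancel over its libraries, so positive values for these pairs force negative ones among the others. The labels do not state such a pairing, though the run numbers in the file headers alternate between the lines in that order. The main fit and the tests of ratios did not use it. A fit with the replicate number as a block was an alternative, as were other scalings, filters, DESeq2 1.42.0, limma 3.58.1 on log2(FPKM + 1 or 0.1) and each library left out. The members, lists, and lists' genes were chosen with earlier results of these data known. Named genes were the members, up to 2 called genes per list and direction with the largest change (at least 1 CPM in the higher line), the nearest tested neighbours within 500 kb and those around Cdkn2a. Rbl2, Cdk6, Ccnd3, Ccng1, Bax, Trp53inp1, Plk2 and Rrm2b were named after their values were seen. Exon windows of 50 bases were matched to the 22 chromosome sequences of mm9 (NCBIM37), and start windows are those of RefSeq (GRCm38.p6).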

Additional observations from a re-analysis of the deposited data

How the results depend on the processing

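The count of members called was 6 under all alternatives but 4, with 5 in the 3 limma fits, where Cdkn2c was not called, and 7 without MV+ replicates 1 and 2, where Cdkn1a was called. Trp53, Cdkn2a, Cdkn2b, Cdkn1b and Rbl1 kept direction and call under all 18. With the replicate block 10766 genes were called in place of 10285, the members called were 6, and no call of a member changed; of the other genes named, Faf1 alone was called with the block (-0.116) and not without it. Limma on FPKM moved the median of all genes by 0.17 to 0.18 and the share of higher calls to 60.6% (61.05% without a filter), against 50.93% in the edgeR fit. Rbl2 and Rnf11 also lost their calls in all 3 limma fits. The signs that turned belong to genes not called. Cdkn2d was at 0.064 with upper quartile scaling, 0.00078 with the CPM filter, 0.075, 0.075 and 0.15 in the 3 limma fits (log2(FPKM + 1) without and with the filter, and log2(FPKM + 0.1)) and 0.195 without MV+ replicates 1 and 2. Mdm2 was at 0.00432 with upper quartile scaling and 0.10, 0.10 and 0.10 in the limma fits, and Rb1 at 0.063, 0.063 and 0.074. Faf1 was at 0.064, 0.064 and 0.066 in them, Trp53inp1 at -0.00249 with no filter, and Cdk6 at -0.19 without MV+ replicates 1 and 2. Leaving out 1 library at a time gave ranges from -0.15 to 0.13 for Cdkn2d, from -0.00095 to 0.37 for Cdkn1a, from -0.044 to 0.15 for Cdk6, from -0.24 to 0.17 for Trp53inp1 and from -0.031 to 0.083 for Lpar6.

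Scaling also set the counts on some lists. Among replication genes driven by E2F, 5 were higher with upper quartile scaling and up to 7 in limma, against 3, and among cyclins and kinases 5 were higher and 2 lower at the extremes, against 3 and 5. Among regulators of the Cdkn2a and Cdkn2b locus 3 were lower in limma, against 5. For list counts and for genes other than the 10, all alternatives were added after seeing the data. The levels of Cdkn2d are limited by its duplicated place in mm9, and those of all genes by reads of C57BL6 and BALB/c origin being aligned to a single reference.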
